A study of Mus musculus with 25 samples.

Results

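The Dectin and Mincle group of pattern-recognition lectins was followed through 25 libraries of mouse lung macrophages. Its members are Clec7a (Dectin-1), Clec4n (Dectin-2), Clec5a (MDL-1), Clec4e (Mincle), Clec4d (MCL) and Clec12a (MICL). They were picked by gene symbol, each symbol stood once in the count table, and together they are 6 of its 13482 genes. All 6 members passed the filter on low counts in every fit.

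C-type lectin receptors of myeloid cells bind sugars and glycolipids of fungi and mycobacteria, and some also bind products of dying cells. Dectin-1 signals through a tyrosine motif in its own tail. Dectin-2 and Mincle signal through the Fc receptor gamma chain, and MDL-1 through DAP12. These routes meet at the kinase SYK and, through CARD9, BCL10 and MALT1, lead to NF-kB and to cytokine genes. MCL partners with Mincle, and MICL carries an inhibitory motif that dampens such signals. Macrophages of the lung meet inhaled fungi and bacteria and use these receptors to sense them.

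The study asked which changes inside interstitial macrophages (IM) depend on IL-9 signaling. It used mixed bone marrow chimeras, animals whose marrow is rebuilt from a pair of donors, so that mutant and wild-type (WT) cells mature in one host. In the IL9R chimeras B6/BoyJ recipients were given Il9r -/- marrow and WT marrow of BoyJ mice. The ARG1 chimeras held cells labelled ARG1CKO (a conditional knockout, here Arg1 CKO) and WT cells; the sources used here give neither the Cre driver nor the recipients, and for both chimeras not the share of recipient cells left in the lung. Tumor-bearing lungs carried B16, a mouse melanoma line. From them CD11c+ IM gave 3 libraries labelled Il9r KO and 2 WT libraries of the IL9R chimeras, and 2 Arg1 CKO and 3 WT libraries of the ARG1 chimeras. CD11c- IM gave 3 libraries labelled Il9r KO and 2 WT libraries, and 3 Arg1 CKO and 3 WT libraries. The naive group was sorted as total macrophages, not divided by CD11c, and gave 1 mutant and 1 WT library from each kind of chimera, 4 in all. The growth note names the tumor model for every library, while the treatment label of these 4 reads naive. No label names the animals, so a p-value here speaks of the spread among these libraries alone, and part of that may be technical.

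Library totals ran from 32308968 to 56904167 counts. Levels are CPM, the counts of a gene per 1000000 counts of its library, with TMM scaling, and a gene was called where its edgeR quasi-likelihood p, adjusted over all genes tested by the Benjamini-Hochberg method, was under 0.05. Arg1 was lower in Arg1 CKO libraries, with a log2 fold change over both subsets of -1.42 (SE 0.40, edgeR adjusted p = 1). Il9r had no read in any of the 12 WT libraries and 83 to 562 reads in each of the 7 libraries labelled Il9r KO, with 0 to 61 reads in the 6 Arg1 CKO libraries. This goes against the Il9r KO label read as loss of transcript, so these libraries are called by their label here. If the labels were exchanged, every sign of labelled Il9r KO minus WT would turn round, which was not tested. Itgax, the gene of CD11c, averaged 350 CPM in CD11c+ and 20.0 CPM in CD11c- WT tumor libraries (n = 5 each), and 404 CPM in naive WT libraries (n = 2). Summed macrophage markers (8 of 8 listed) were at 14283 CPM or more in every library. Summed interstitial markers (9 of 9 listed) were at 11394 CPM or more, with medians of 27352 CPM in CD11c+ and 24545 CPM in CD11c- IM. Single interstitial markers went both ways. Apoe averaged 15387 CPM in CD11c+ and 11961 CPM in CD11c- IM, and Folr2 146 and 689 CPM. Lyve1 reached 0 in some libraries and averaged 2.33 CPM in CD11c+, 54.3 CPM in CD11c- and 27.7 CPM in naive libraries. Replicate 3 of the CD11c+ libraries labelled Il9r KO stood apart: summed B16 melanoma markers reached 1044 CPM there, against 56.3 to 132.6 CPM in the other CD11c+ libraries. That library also held the lowest interstitial sum, 11394 CPM, where the other CD11c+ libraries were at 26004 CPM or more.

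The genes of all 6 members lie on chromosome 6 (GENCODE vM21, GRCm38, the build the submitters call mm10). Clec4n (123229843 to 123247021, plus strand), Clec4d (123262111 to 123275265, plus) and Clec4e (123281789 to 123289870, minus) are direct neighbours within the group. Only 15089 bases part Clec4n from Clec4d, and 6523 bases part Clec4d from Clec4e. Clec12a (129342691 to 129365303, plus) and Clec7a (129461591 to 129472779, minus) are 96287 bases apart. Clec5a (40574894 to 40585821, minus) lies far from the others. No exon of a member overlapped an exon of another annotated gene, and words of 50 bases shared with other genes made up 0.686% of those of Clec4n, 0.402% of those of Clec12a and none of those of the other members.

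Promoter windows from RefSeq (GRCm38.p6, 250 bases before to 50 bases after the start) were given for 5 of the 6 members. The windows of Clec7a and Clec5a, which move together below, and of the neighbours Clec4e and Clec4d are shown, on the strand of each gene. Capitals mark matches to AGGAAG, the core bound by the myeloid factor PU.1, or to TTGCNNAA, a C/EBP half-palindrome, on either strand.
Clec7a (chr6:129472730-129473029, minus): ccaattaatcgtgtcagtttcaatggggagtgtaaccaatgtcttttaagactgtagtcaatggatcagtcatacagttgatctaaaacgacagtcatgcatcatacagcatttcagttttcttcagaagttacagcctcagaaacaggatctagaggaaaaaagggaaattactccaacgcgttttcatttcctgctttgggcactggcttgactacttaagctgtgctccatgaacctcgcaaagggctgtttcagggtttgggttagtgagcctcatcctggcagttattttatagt
Clec5a (chr6:40585756-40586055, minus): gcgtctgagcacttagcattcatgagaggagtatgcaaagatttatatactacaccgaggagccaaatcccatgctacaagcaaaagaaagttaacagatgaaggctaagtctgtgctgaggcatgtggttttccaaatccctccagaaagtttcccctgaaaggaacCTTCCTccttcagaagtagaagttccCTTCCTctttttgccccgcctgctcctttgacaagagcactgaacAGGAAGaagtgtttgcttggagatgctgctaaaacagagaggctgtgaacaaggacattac
Clec4e (chr6:123289822-123290121, minus): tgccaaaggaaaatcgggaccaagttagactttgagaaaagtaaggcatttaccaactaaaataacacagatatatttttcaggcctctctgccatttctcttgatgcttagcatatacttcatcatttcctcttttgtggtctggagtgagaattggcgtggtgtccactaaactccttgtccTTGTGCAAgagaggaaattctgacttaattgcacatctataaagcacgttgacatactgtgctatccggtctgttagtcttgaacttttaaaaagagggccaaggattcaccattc
Clec4d (chr6:123261857-123262156, plus): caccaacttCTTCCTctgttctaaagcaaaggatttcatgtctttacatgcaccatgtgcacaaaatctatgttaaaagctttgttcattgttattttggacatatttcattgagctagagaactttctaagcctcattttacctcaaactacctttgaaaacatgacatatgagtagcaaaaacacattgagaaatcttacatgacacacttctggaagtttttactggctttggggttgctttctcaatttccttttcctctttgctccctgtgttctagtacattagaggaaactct

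AGGAAG matched 3 times in the Clec5a window, starting at -82, -56 and -11 from the start site, once in the Clec4d window at -241 and at -73 and -60 in the Clec12a window. It was held by 35.1% of 27025 promoters of the same length. TTGCNNAA matched at -66 in the Clec4e window and at -140 in the Clec12a window, where TTGCGCAA reads alike on both strands, and 10.8% of promoters held it. Of the AP-1 motif TGANTCA (7.93% of promoters) there was 1 match, at -213 in the Clec12a window, and of the NF-kB motif (GGGA, any 4 bases, CC; 20.5%) none. The Clec7a window shown held none of these motifs, and no match overlapped a match of another motif. Of 2 promoter entries given for Clec7a, only the first listed was scanned.

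Per kb of exon (all annotated exons merged), Clec4n and Clec7a were the most abundant members in CD11c+ IM at 425 CPM per kb (SD 93.9) and 408 CPM per kb (SD 149, n = 10). Clec4d followed at 66.7, Clec12a at 47.6, Clec4e at 43.0 and Clec5a at 28.1 CPM per kb. In CD11c- IM the same pair led at 128 (SD 35.6) and 124 (SD 56.3) CPM per kb (n = 11), with Clec4d at 89.2, Clec4e at 70.5, Clec12a at 58.1 and Clec5a at 13.7 CPM per kb. In naive macrophages Clec7a led at 447 CPM per kb (SD 72.2), Clec4n reached 299 CPM per kb (SD 93.8, n = 4), and the other members lay between 30.2 and 37.3 CPM per kb. Clec7a and Clec4n did not differ beyond their spread in either tumor subset, nor did Clec12a and Clec4e in CD11c+ IM or the 4 lower members in naive macrophages. The distance from the leading pair to the next member was far wider in CD11c+ and naive cells than in CD11c- IM.

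**Figure D1:**
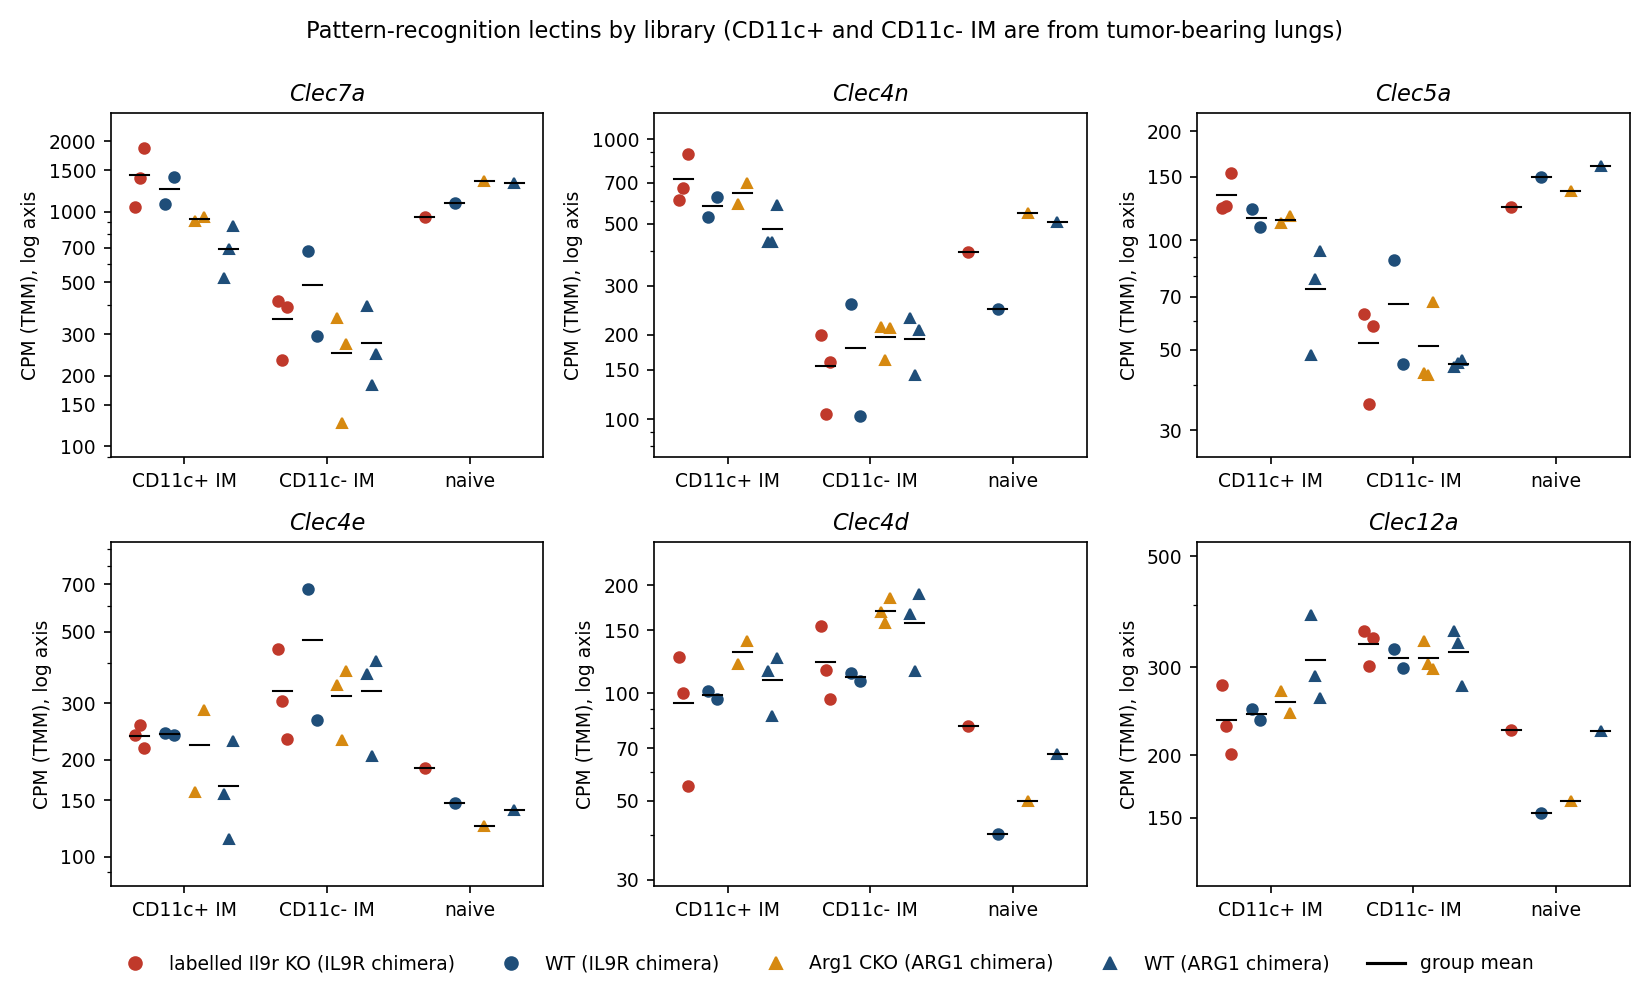
Level of each lectin in every library, in TMM-scaled CPM on a log axis; the line is the group mean, color gives the genotype and the marker shape the kind of chimera. Clec7a, Clec4n and Clec5a sit lowest in CD11c- IM, while Clec4e, Clec4d and Clec12a sit lowest in naive macrophages by their means (150.1, 59.6 and 190.6 CPM).

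CD11c+ and CD11c- IM carried the activating lectins in different proportions. In WT tumor cells Clec7a, Clec4n and Clec5a were higher in CD11c+ IM, and Clec4e was lower. These 4 of the 6 members were called, where 11.5% of 13434 genes tested were called (5.44% higher and 6.1% lower). Clec4d and Clec12a did not pass. In sorted bulk cells a smaller number of expressing cells and less RNA per cell cannot be told apart.

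Clec4n, the receptor for fungal mannans, had 528, 624.6, 429, 429 and 582 CPM in WT CD11c+ libraries, against 258, 102, 231, 144 and 208 CPM in WT CD11c- libraries (IL9R chimeras first). Every CD11c+ library exceeded every CD11c- library. The log2 fold change was 1.48 (SE 0.23, edgeR adjusted p = 2.98e-04), a 2.79-fold difference.

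Clec7a, the receptor for beta-glucan, had 1082, 1407, 523, 696 and 871 CPM in WT CD11c+ libraries, against 676, 296, 394, 182 and 247 CPM in WT CD11c- libraries. The groups overlapped only between the kinds of chimera, and within each kind every CD11c+ library was the higher. The log2 fold change was 1.34 (SE 0.29, edgeR adjusted p = 0.00546). The calls of Clec7a and Clec4n were kept in 16 of 16 alternative settings.

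Clec5a, which pairs with DAP12, had 122, 109, 48.3, 78.5 and 93.3 CPM in WT CD11c+ libraries, against 88.3, 45.5, 44.7, 45.9 and 46.7 CPM in WT CD11c- libraries. Here too the groups overlapped only between the kinds of chimera. The log2 fold change was 0.72 (SE 0.21, edgeR adjusted p = 0.0284). The call was lost in 8 of 16 alternatives, among them those without IL9R CD11c- WT replicate 2 (edgeR adjusted p = 0.125), either IL9R CD11c+ WT replicate (0.0891 and 0.0653), ARG1 CD11c- WT replicate 1 or 2 (0.0563 and 0.052) and ARG1 CD11c+ WT replicate 2 or 3 (0.0537 and 0.0661).

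Clec4e, the receptor for mycobacterial cord factor, ran the other way. It had 243, 239, 156, 113 and 228 CPM in WT CD11c+ libraries, against 676, 266, 370, 206 and 406 CPM in WT CD11c- libraries. The groups overlapped, through 1 CD11c- library of the ARG1 chimeras. The log2 fold change was -0.99 (SE 0.27, edgeR adjusted p = 0.0217), 1.98-fold lower in CD11c+ IM. IL9R CD11c- WT replicate 1 was the highest of all 25 libraries, and without it the log2 fold change was -0.57 (edgeR adjusted p = 0.221). The call was also lost without IL9R CD11c+ WT replicate 1 or 2 (edgeR adjusted p = 0.0756 and 0.0877), ARG1 CD11c- WT replicate 1 (0.0508) or ARG1 CD11c+ WT replicate 2 (0.0519).

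Clec4d, the partner of Mincle, ranged from 86.1 to 125 CPM in WT CD11c+ libraries and from 108.0 to 189 CPM in WT CD11c- libraries, with a log2 difference of -0.36 (edgeR adjusted p = 0.26). The inhibitory Clec12a ranged from 235 to 381 CPM in CD11c+ IM and from 276 to 355 CPM in CD11c- IM, with a log2 difference of -0.22 (edgeR adjusted p = 0.282). Both pairs of ranges overlapped.

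The mutant cells gave the same calls for the 3 lectins that were higher in CD11c+ IM. These cells may come from the same animals as the WT cells and were tested in the same fit. Their calls are therefore not independent of those in WT cells. In cells labelled Il9r KO Clec7a had 1048, 1397 and 1877 CPM in CD11c+ libraries, against 417, 234 and 393 CPM in CD11c- libraries. Clec4n had 606, 671 and 885 CPM in CD11c+ libraries, against 199.6, 105 and 160.0 CPM in CD11c- libraries. Neither gene's groups overlapped. The log2 fold changes were 2.04 (SE 0.38) for Clec7a, 2.21 (SE 0.30) for Clec4n and 1.35 (SE 0.27) for Clec5a (edgeR adjusted p = 0.00217, 1.51e-04 and 0.00349). These 3 calls, where 5.94% of genes were called (2.8% higher and 3.14% lower), were kept in 12 of 12 alternatives, those without the outlying CD11c+ replicate 3 included. Clec12a, lower in all 3 CD11c+ libraries (276, 229 and 201 CPM, against 355, 302 and 344 CPM in CD11c- libraries), had a log2 difference of -0.51 that missed the threshold (edgeR adjusted p = 0.0689) and passed it with DESeq2 (adjusted p = 0.0159) and with replicate blocks (edgeR adjusted p = 0.0122 and 0.0452).

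In Arg1 CKO cells Clec4n had 585 and 697 CPM in CD11c+ libraries, against 213, 163 and 213 CPM in CD11c- libraries. Clec7a had 914 and 949 CPM in CD11c+ libraries, against 351, 125 and 272 CPM in CD11c- libraries. The groups of both genes stood well apart. The log2 fold changes were 1.71 (SE 0.31) for Clec4n, 1.90 (SE 0.41) for Clec7a and 1.16 (SE 0.29) for Clec5a (edgeR adjusted p = 0.00427, 0.0142 and 0.0335), where 2.89% of genes were called (1.64% higher and 1.25% lower). The call of Clec4n was kept in 11 of 11 alternatives. That of Clec7a was lost without CD11c+ Arg1 CKO replicate 1 or 2 or CD11c- replicate 2 (edgeR adjusted p = 0.109, 0.0742 and 0.0604), and that of Clec5a also without CD11c- replicate 1 (0.164). Clec4e differed by -0.46 on the log2 scale in cells labelled Il9r KO and by -0.51 in Arg1 CKO cells and was called in neither (edgeR adjusted p = 0.536 and 0.583).

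**Figure D2:**
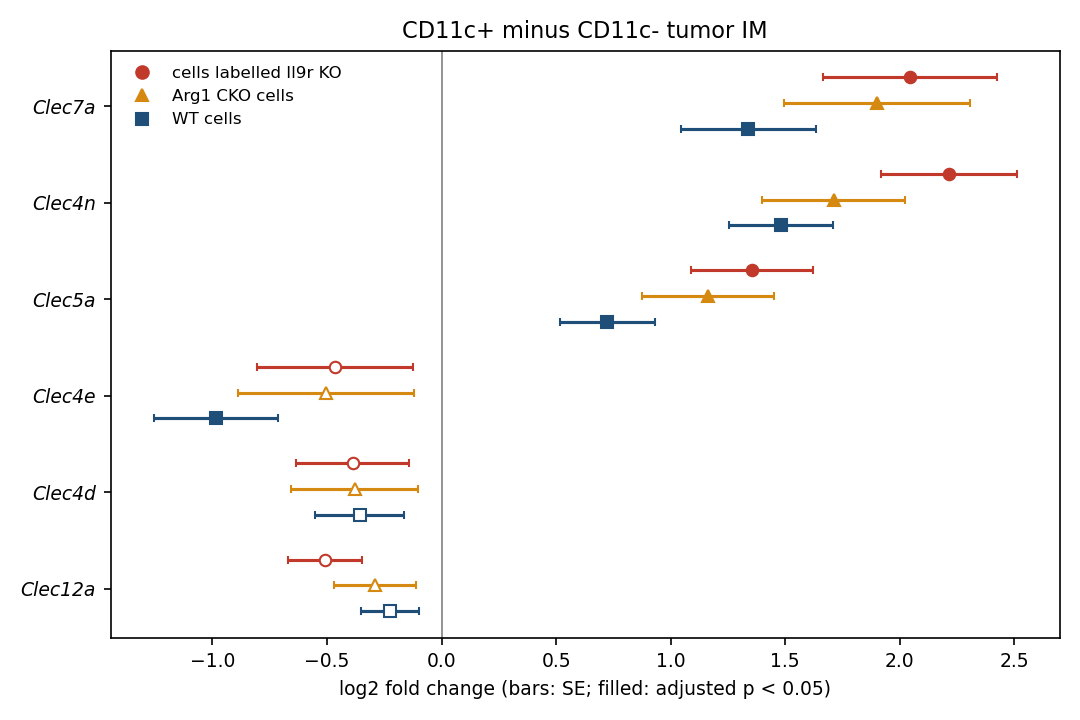
Log2 fold change of each lectin, CD11c+ minus CD11c- IM of tumor-bearing lungs, in 3 kinds of cells; bars are standard errors and filled markers are called genes. Clec7a, Clec4n and Clec5a lie right of 0 in all 3 (0.72 to 2.21), and Clec4e, Clec4d and Clec12a left of it (-0.99 to -0.22).

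Markers of other cell types moved with the subset. Alveolar macrophage markers (10 of 10 listed) summed to 524 to 10122 CPM in CD11c+ IM and to 259 to 527 CPM in CD11c- IM. Most of this was Chil3, which the monocyte list shares; without it the sums were 110.5 to 724 CPM and 63.7 to 122 CPM. Dendritic cell markers (10 of 10) summed to 144 to 320.2 CPM in CD11c+ IM and to 12.9 to 75.9 CPM in CD11c- IM. Monocyte markers other than Chil3 summed to 1882 to 3011 CPM in CD11c+ IM and to 3742 to 6524 CPM in CD11c- IM. Among single alveolar genes Siglecf averaged 6.38 CPM in CD11c+ IM and 1.56 CPM in CD11c- IM, Car4 53.7 CPM in CD11c+ IM and 0.747 CPM in CD11c- IM, Ear2 40.6 CPM in CD11c+ IM and 2.49 CPM in CD11c- IM, and Marco 4.14 CPM in CD11c+ IM and 6.69 CPM in CD11c- IM. The largest dendritic cell genes were Ccr7, at 136 CPM in CD11c+ IM and 9.66 CPM in CD11c- IM, and Fscn1, at 46.9 CPM in CD11c+ IM and 4.17 CPM in CD11c- IM, while Flt3 averaged 4.04 CPM in CD11c+ IM and 1.12 CPM in CD11c- IM. Neutrophil markers (10 of 11 in the table) summed to 179 to 471 CPM in CD11c+ IM (median 307) and to 271 to 1106 CPM in CD11c- IM (median 583), and Mmp9 of that list averaged 27.5 CPM in CD11c+ IM and 118 CPM in CD11c- IM. The CD11c+ libraries with the highest alveolar sums, replicates 3 and 2 labelled Il9r KO and IL9R WT replicate 2 (10122, 7419 and 6401 CPM), were also the highest in Clec7a. The part of these cells in the lectin levels was not tested.

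The neighbouring genes of Mincle and Dectin-2 separated the subsets as a ratio within a library. Both genes differed between the subsets in opposite directions in these same libraries, so the ratio describes those differences and is no further test. Per length, Clec4e stood at 0.0703 to 0.131 of Clec4n in the 10 CD11c+ libraries (median 0.109) and at 0.405 to 0.832 in the 11 CD11c- libraries (median 0.506). In the 4 naive libraries it stood at 0.0654 to 0.169. No CD11c- library reached the range of the others, in any genotype.

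Across all 25 libraries log2 CPM of Clec4e and Clec4n ran in opposite directions (Pearson r = -0.38). As deviations from the group means over the 21 tumor libraries they ran together (r = 0.75). Clec7a and Clec4e behaved likewise (r = -0.38 over all libraries and 0.59 within groups). Clec7a and Clec4n went together in both views (r = 0.87 and 0.86), as did Clec7a and Clec5a (0.92 and 0.64) and Clec4e and Clec4d (0.65 and 0.61). Clec12a, by contrast, followed Clec4d over all libraries (r = 0.77) and much less within groups (0.27). These coefficients are descriptions: libraries of one chimera may share an animal, and all genes of a library share its scaling.

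**Figure D3:**
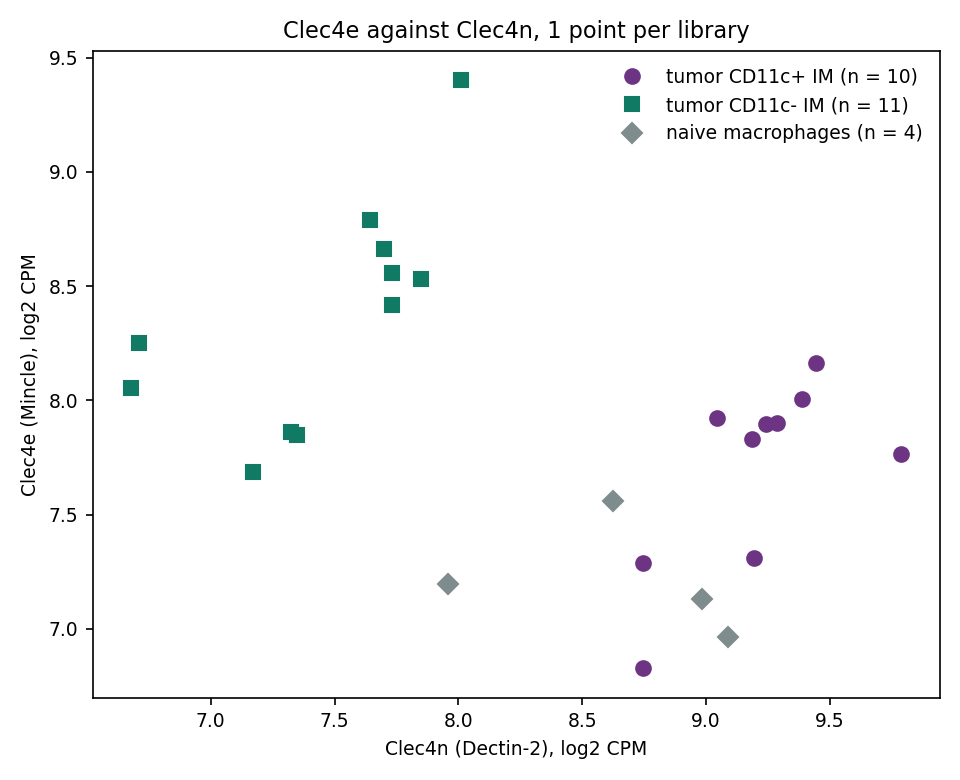
Clec4e (Mincle) against Clec4n (Dectin-2), both in log2 CPM, with 1 point per library. The CD11c- libraries form their own cloud at low Clec4n and high Clec4e, and within each tumor subset libraries higher in Clec4n tend to be higher in Clec4e (r = 0.75 within groups).

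Tumor IM were set against naive total macrophages within WT and within mutant cells. Both tumor subsets were compared with the same naive libraries, so their values below are not independent. In WT cells all 6 members were called between CD11c- IM and naive macrophages, where 23.2% of 13170 genes were called (13% higher, 10.2% lower). Clec4e, Clec4d and Clec12a were higher in tumor CD11c- IM, and Clec7a, Clec4n and Clec5a were lower. The same 6 calls were made in mutant cells, which may come from the same animals. There 23% of 13356 genes were called (11.3% higher and 11.7% lower). Monocyte markers moved too: of 9 listed, 6 were higher and 0 lower in WT CD11c- IM than in naive macrophages, among them Ly6c2 (log2 4.56), Vcan (5.58), Ms4a4c (4.49) and F13a1 (2.63), and 4 were higher and 1 lower in CD11c+ IM. Without Chil3 their sums were 1882 to 3011 CPM in CD11c+ IM, 3742 to 6524 CPM in CD11c- IM and 2710 to 4271 CPM in naive libraries, and their part in the lectin levels was not tested. The naive cells differ from the IM subsets in how they were sorted, and from CD11c- IM in Itgax (404 CPM in naive and 20.0 CPM in CD11c- WT libraries). Tumor and sorting cannot be told apart here.

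Among the lectins that were lower, Clec7a was at the 182 to 676 CPM given above in WT CD11c- libraries, against 1094 and 1319.6 CPM in naive WT libraries, and the groups did not overlap. Its log2 fold change in tumor CD11c- IM was -1.78 (SE 0.33, edgeR adjusted p = 0.00133) in WT cells and -2.01 (SE 0.32, edgeR adjusted p = 9.10e-04) in mutant cells. Clec5a was at 44.7 to 88.3 CPM in WT CD11c- libraries, against 149.6 and 160.1 CPM in naive WT libraries. It changed by -1.49 (SE 0.26, edgeR adjusted p = 7.69e-04) in WT and -1.34 (SE 0.21, edgeR adjusted p = 7.52e-04) in mutant cells. Clec4n was at 102 to 258 CPM in WT CD11c- libraries, against 248 and 507 CPM in naive WT libraries, and these overlapped. Its log2 fold change was -0.97 (SE 0.31, edgeR adjusted p = 0.0351) in WT and -1.42 (SE 0.22, edgeR adjusted p = 7.49e-04) in mutant cells.

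Among the lectins that were higher, Clec4d had 114, 108.0, 166, 116 and 189 CPM in WT CD11c- libraries, against 40.3 and 67.4 CPM in naive WT libraries. Its log2 fold change was 1.37 (SE 0.23, edgeR adjusted p = 7.83e-04) in WT and 1.10 (SE 0.31, edgeR adjusted p = 0.0221) in mutant cells. Clec4e rose 2.75-fold over naive WT libraries (147 and 140.2 CPM), a log2 fold change of 1.46 (SE 0.36, edgeR adjusted p = 0.00923), and by 1.05 (SE 0.28, edgeR adjusted p = 0.0154) in mutant cells. Clec12a had 326, 299, 355, 335 and 276 CPM in WT CD11c- libraries, against 153 and 223 CPM in naive WT libraries. Its log2 fold changes were 0.78 (SE 0.19, edgeR adjusted p = 0.00901) in WT and 0.75 (SE 0.16, edgeR adjusted p = 0.00545) in mutant cells. No WT CD11c- library overlapped the naive WT range for these 3 genes.

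With 2 naive libraries per fit, 1 of them decided several calls. Without the ARG1 naive WT library 2 of the 6 members stayed called in WT cells, Clec4d and Clec12a; Clec4n moved to -0.32 (edgeR adjusted p = 0.683) and Clec7a to -1.14 (0.111). Clec4n was also lost without ARG1 CD11c- WT replicate 2 or 3 (edgeR adjusted p = 0.0639 and 0.0526). Without the IL9R naive WT library Clec4e and Clec12a were lost (edgeR adjusted p = 0.139 and 0.151). In mutant cells 2 of the 6 members, Clec4n and Clec5a, stayed called without the ARG1 naive CKO library (Clec4d moved to 0.64, edgeR adjusted p = 0.391), which carried 4720 CPM of summed alveolar and 419 CPM of summed epithelial markers, the highest of the 4 naive libraries. The part of these cells was not tested.

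Between tumor CD11c+ IM and naive macrophages 3 members were called in WT cells, where 23.2% of genes were called (13.7% higher and 9.54% lower). Clec4d was higher (log2 0.99, SE 0.23, edgeR adjusted p = 0.00664), as was Clec12a (0.60, SE 0.19, edgeR adjusted p = 0.0351), and Clec5a was lower (-0.76, SE 0.26, edgeR adjusted p = 0.0478). Clec4d was above the naive range in all 5 WT CD11c+ libraries. Clec7a differed by -0.42, Clec4n by 0.50 and Clec4e by 0.49 (edgeR adjusted p = 0.408, 0.306 and 0.332), and their groups overlapped.

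Those 3 calls hung on single libraries. Without the IL9R naive WT library none of them passed, and 1 passed without the ARG1 naive WT library, IL9R CD11c+ WT replicate 1 or ARG1 CD11c- WT replicate 2. The call of Clec5a was lost in 10 of 16 alternatives, with log2 values of -1.08 to -0.37; besides those it needed IL9R CD11c+ WT replicate 2, ARG1 CD11c- WT replicates 1 and 3 and ARG1 CD11c+ WT replicates 1 and 2. In mutant cells edgeR called 0 of the 6, where 5.71% of genes were called (3.02% higher and 2.7% lower), and DESeq2 called 0. Unadjusted p was under 0.05 for 2 members, beside 3056 of 13356 genes tested. These were Clec4n (0.59, edgeR adjusted p = 0.177) and Clec4d (0.70, edgeR adjusted p = 0.193). Clec4d was called there without CD11c+ replicate 3 labelled Il9r KO (0.87, edgeR adjusted p = 0.0312) and without the naive library labelled Il9r KO (1.39, edgeR adjusted p = 0.0392). The outlying CD11c+ replicate held 54.8 CPM of Clec4d, the lowest of the tumor libraries, beside 1877 CPM of Clec7a, the highest of all 25.

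**Figure D4:**
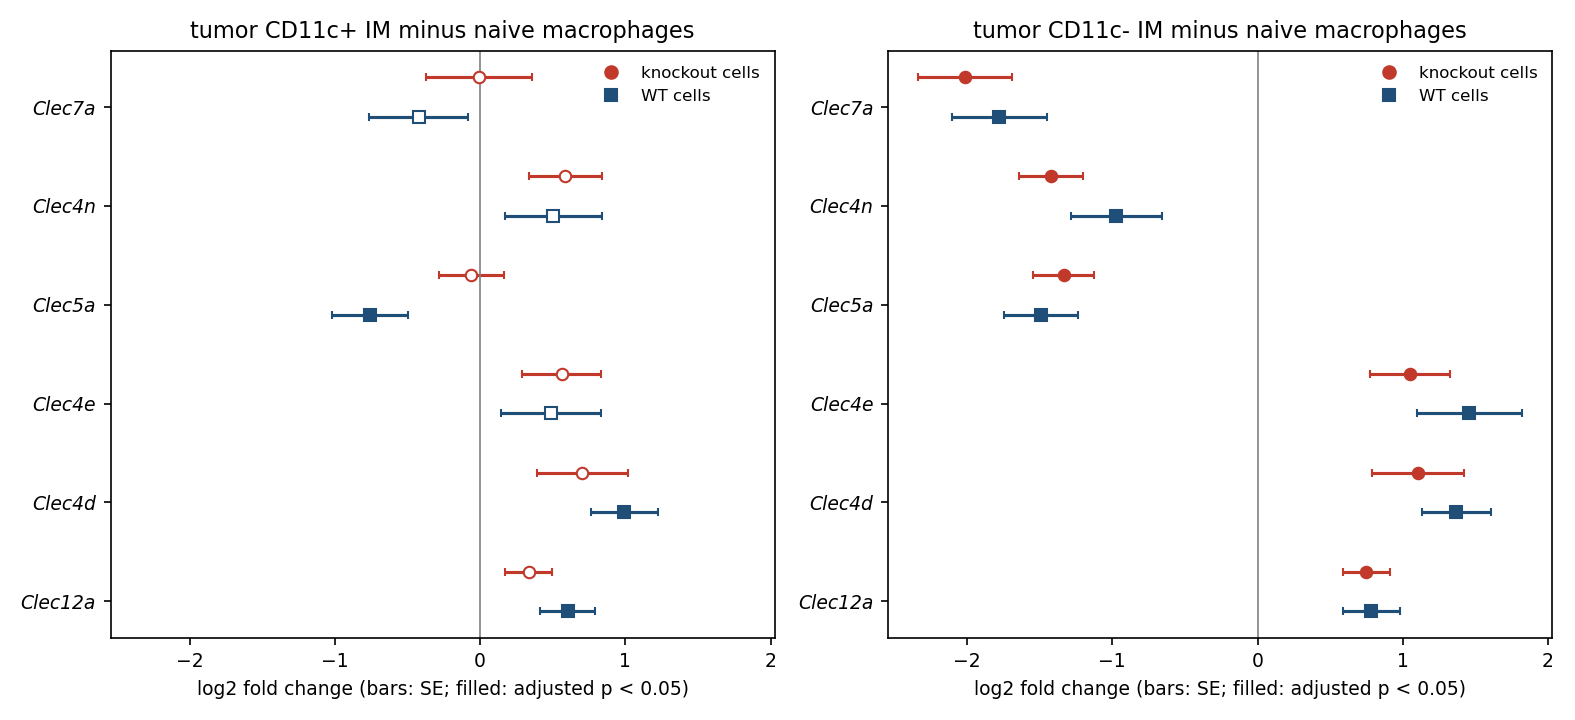
Log2 fold change of each lectin in tumor CD11c+ IM (left) and tumor CD11c- IM (right), each minus naive total macrophages, in mutant (circles) and WT cells (squares); bars are standard errors and filled markers are called genes. All 12 values on the right are called, from -2.01 to 1.46, against 3 on the left.

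No lectin was called between genotypes. In cells labelled Il9r KO against WT cells of the same chimeras, edgeR called 0 of the 6 members over both subsets (0.0521% of genes called, 0.0149% higher and 0.0372% lower), in CD11c- IM (0.0223% called, 0.00744% higher and 0.0149% lower) and in CD11c+ IM (0.0298% called, 0.00744% higher and 0.0223% lower). No member had an unadjusted p under 0.05 in these 3 comparisons, where 562, 836 and 380 of 13434 genes had one, and DESeq2 called 0. Over both subsets the log2 differences ran from -0.27 for Clec4e to 0.05 for Clec4n. The outer bounds of their 95% intervals, taken over all members, were -0.85 and 0.54. Changes within the interval of a member were not excluded for it. In CD11c- IM Clec4e had 442, 304 and 233 CPM in libraries labelled Il9r KO, against 676 and 266 CPM in WT libraries, a log2 difference of -0.53 (SE 0.38, edgeR adjusted p = 0.813). The groups overlapped, and pairs of one label number pointed in opposite directions (-0.61 and 0.20 on the log2 scale), as they did for Clec4n (-0.37 and 0.03). Both pairs were lower for Clec7a (-0.70 and -0.34) and Clec5a (-0.49 and -0.37). For Clec4d (0.44 and 0.10) and Clec12a (0.12 and 0.01) both were higher.

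In Arg1 CKO against WT cells edgeR also called 0 members over both subsets (0.0372% of genes called, 0.00744% higher and 0.0298% lower), in CD11c- IM (0.00744%, all lower) and in CD11c+ IM (0.0447% called, 0.0149% higher and 0.0298% lower), and DESeq2 called 0. In CD11c- IM the log2 differences stayed between -0.15 and 0.15. In CD11c+ IM 5 members were above 0 and Clec12a below it. Clec5a was the 1 member with an unadjusted p under 0.05, beside 779 of 13434 genes tested. It had 112 and 116 CPM in Arg1 CKO libraries, against 48.3, 78.5 and 93.3 CPM in WT libraries, and these did not overlap. Its log2 difference was 0.64 (SE 0.29, 95% interval 0.01 to 1.26, edgeR adjusted p = 0.775). Clec7a and Clec4n were also above the WT range in both CKO libraries, but narrowly. The lowest CKO value was 914 CPM against a highest WT value of 871 CPM for Clec7a, and 585 against 582 CPM for Clec4n. Their log2 differences between the groups were 0.42 each (edgeR adjusted p = 0.87 and 0.808). ARG1 CD11c+ WT replicate 1, lowest of the CD11c+ libraries in Clec5a and Clec7a, was also lowest of all libraries in Ptprc (CD45) at 115 CPM, and its part in these differences was not tested.

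**Figure D5:**
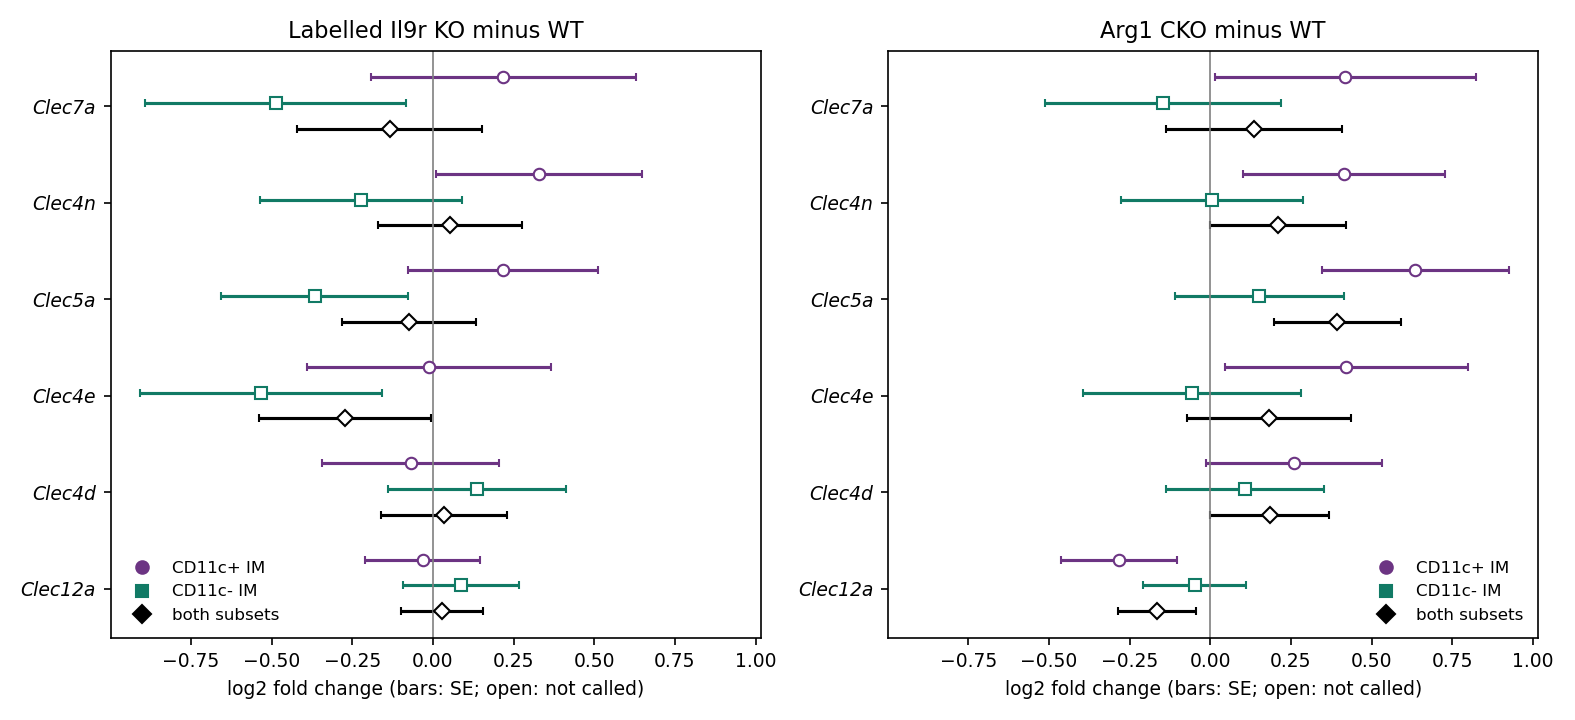
Log2 fold change of each lectin in mutant minus WT cells, for cells labelled Il9r KO (left) and Arg1 CKO cells (right), within CD11c+ IM, within CD11c- IM and over both; bars are standard errors. No marker is filled because no member was called, and the values run from -0.53 to 0.64.

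Whether genotype acted differently in the subsets was tested as an interaction. No member was called for Il9r (log2 -0.21 to 0.71) or for Arg1 (-0.23 to 0.57). In each, edgeR called 0 of 13434 genes and DESeq2 called 0 members. Unadjusted p was under 0.05 for 0 members, beside 740 genes for Il9r and 519 for Arg1. The 95% interval for Clec7a ran from -0.54 to 1.95 for Il9r.

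In naive macrophages, with 1 library a group and no test, 0 of the 12 log2 ratios of mutant to WT passed 2-fold. The widest were in the IL9R chimeras, where Clec4d had 80.6 CPM in the library labelled Il9r KO, against 40.3 CPM in the WT library, and Clec4n had 395 CPM, against 248 CPM. In the ARG1 chimeras the ratios lay between -0.47 and 0.10, and Clec7a was nearly level at 1354 CPM in the CKO library, against 1319.6 CPM in the WT library.

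WT cells of the IL9R and ARG1 chimeras matured beside cells of different genotype. Whether they also differ in recipients or experiment is not given, and these cannot be told apart. Here edgeR called 0 of the 6 members, where 0.268% of genes were called (0.231% higher and 0.0372% lower), and DESeq2 called 0. Unadjusted p was under 0.05 for 2 members, beside 2194 of 13434 genes tested. The 2 members were Clec7a, with a log2 difference of 0.82 (SE 0.29, edgeR adjusted p = 0.185), and Clec5a, with 0.59 (SE 0.20, edgeR adjusted p = 0.182). In CD11c+ IM both WT libraries of the IL9R chimeras were above all 3 of the ARG1 chimeras for Clec7a, and likewise for Clec5a. With a replicate block for all label numbers Clec4d (-1.07, edgeR adjusted p = 0.0209) and Clec5a (1.10, edgeR adjusted p = 0.035) were called. Those blocks lie within the kinds of chimera, so the blocked contrast depends on which replicate is the reference and cannot compare the kinds.

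The signaling chain behind the lectins was followed as lists in WT cells, whose members were chosen with earlier results of these data known. Of 23 adaptors and kinases 6 were higher and 9 lower in tumor CD11c- IM than in naive macrophages (median log2 change -0.18, against -0.03 over all genes), and 3 were higher and 8 lower in CD11c+ IM (median -0.29, against -0.02). These shares compare with 13% of all genes higher and 10.2% lower in CD11c- IM, and 13.7% higher and 9.54% lower in CD11c+ IM. Fcer1g, the gamma chain used by Dectin-2 and Mincle, averaged 2166 CPM in CD11c+ IM, 2083 CPM in CD11c- IM and 734 CPM in naive macrophages (log2 1.55 and 1.51 over naive, edgeR adjusted p = 6.47e-04 and 4.25e-04). Tyrobp (DAP12), the partner of MDL-1, rose by 1.15 and 0.75 (edgeR adjusted p = 0.00418 and 0.0361). Syk fell by 0.60 and 0.63 (edgeR adjusted p = 0.0211 and 0.0161), and Malt1 fell by 1.09 and 1.54 (edgeR adjusted p = 0.0136 and 0.00136). Card9 fell by 1.04 in CD11c- IM (edgeR adjusted p = 0.0207).

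Between the subsets 2 of 23 adaptors and kinases were higher and 4 lower in CD11c+ IM (median -0.05, against 0.00 over all genes), where 5.44% of all genes were higher and 6.1% lower. Src was at 9.66 CPM in CD11c+ IM and 2.20 CPM in CD11c- IM (log2 2.13, edgeR adjusted p = 0.00132), and Traf6 and Lcp2 (SLP-76) were lower (-0.81 and -0.54, edgeR adjusted p = 0.0088 and 0.00245). Neither Fcer1g, Tyrobp, Syk nor Card9 was called there. Of 10 tested genes that restrain such signals, of 12 listed, 4 were lower in CD11c+ IM and 0 higher, among them Pirb (-0.86), Dok2 (-1.02) and Inpp5d (SHIP-1, -0.50), beside a list median of -0.24; of all genes 5.44% were higher and 6.1% lower. Over naive macrophages 3 of the 10 were higher and 1 lower in CD11c- IM, with Pirb at 0.64, Dok2 at 1.57, Ubash3b at 1.20 and Lilrb4a at -0.65, and 0 were higher and 1 lower in CD11c+ IM (Lilrb4a, -0.86). Of all genes 13% were higher and 10.2% lower in CD11c- IM, and 13.7% higher and 9.54% lower in CD11c+ IM.

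Among 17 transcription factors of these pathways 4 were lower and 0 higher in tumor CD11c- IM than in naive macrophages, and 6 were lower and 0 higher in CD11c+ IM, where 10.2% and 9.54% of all genes were lower and 13% and 13.7% higher. They included Nfatc1 (-0.91 in CD11c+ and -1.02 in CD11c- IM), Egr1 (-1.54 and -1.18) and Jun (-1.12 and -0.68). Of 18 cytokine and effector genes that such receptors can induce, 6 were higher and 2 lower in CD11c- IM, and 4 were higher and 1 lower in CD11c+ IM, beside the same shares of all genes. Il10 rose by 2.27 in CD11c+ and 3.25 in CD11c- IM, Ccl4 by 2.24 and 2.89 and Nos2 by 2.93 and 4.44 over naive macrophages. Il12b went the other way, at 5.87 CPM in CD11c+ IM, 0.779 CPM in CD11c- IM and 44.1 CPM in naive macrophages.

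Between the subsets Hif1a (log2 -1.03), Il10 (-1.01), Ccl2 (-1.20) and Nos2 (-1.57) were lower in CD11c+ IM, the direction of Clec4e, and Il12b (2.69) and Csf1 (0.88) were higher. In these 2 lists 1 of 17 factors was higher and 2 lower, and 2 of 18 targets were higher and 3 lower, where 5.44% of all genes were higher and 6.1% lower.

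Other genes of the lectin region of chromosome 6 did not move as one block. Of 16 tested, of 18 listed, 5 were higher and 0 lower in WT CD11c+ than in CD11c- IM, where 5.44% of all genes were higher and 6.1% lower. Over naive macrophages the count was 4 higher and 1 lower for CD11c+ IM, beside 13.7% and 9.54% of all genes, and 3 higher and 6 lower for CD11c- IM, beside 13% and 10.2%. Between the subsets Clec4b1 was among those higher (log2 1.29, edgeR adjusted p = 0.00217) at 47.7 CPM in CD11c+ IM and 19.5 CPM in CD11c- IM, and so were Clec1b, Klrb1a, Klrb1b and Klrd1, of which the Klr genes are used by natural killer cells. The DCIR genes Clec4a1, Clec4a2 and Clec4a3 were called in both tumor subsets over naive macrophages, by 1.92, 1.78 and 0.76 in CD11c+ IM and 2.49, 1.88 and 1.03 in CD11c- IM. They were not called between the subsets. Summed T and NK cell markers (8 of 10 in the table) were at 35.9 to 220.3 CPM in CD11c+, 21.7 to 53.2 CPM in CD11c- and 160.1 to 264 CPM in naive libraries. Most of this was Cd2 (means of 36.9, 2.84 and 146.5 CPM) and Il7r (72.8, 34.2 and 60.8 CPM). In the same order, Cd3e averaged 0.585, 0.173 and 0.414 CPM and Gzma 1.34, 0.381 and 2.72 CPM. The part of T and NK cells in the Klr values was not tested.

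Genes whose log2 CPM followed a lectin most closely over the 25 libraries, among 8111 genes with a mean log2 CPM of at least 3, were named by rank of Pearson r. Clec7a was followed by Axl, Ear2 and Spint1 (r 0.94, 0.94 and 0.93), Clec4n by Mreg, Cd22 and Gstm1 (0.92, 0.92 and 0.91), and Clec5a by Plxnc1, Tgfbr1 and Cyp51 (0.95, 0.93 and 0.93). Clec4e was followed by Ptgs2, Irg1 and Ifit1bl1 (0.89, 0.89 and 0.85), Clec4d by Chst11, Cycs and Tmem261 (0.92, 0.92 and 0.91) and Clec12a by Psmb9, Ccl12 and Ccl4 (0.95, 0.94 and 0.94). No gene stood among the top 3 of more than 1 lectin. The libraries fall into separate populations and share their scaling, so these coefficients are descriptions.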

How the data were processed

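Bulk RNA-seq of sorted lung macrophages was measured in 25 libraries made with the Clontech SMART-seq v4 and Nextera XT kits, per the labels' protocols. The authors deposited raw counts per gene; FastQC 0.11.5, STAR 2.7.10a and featureCounts of Subread 2.0.3 on mm10 are named in the submitters' processing notes, and the annotation and strand setting are not given in the sources used here. Genes were matched by symbol, because the identifier column did not match the symbols.

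Counts were scaled by TMM and tested with edgeR 4.0.16 (R 4.3.3; quasi-likelihood, filterByExpr, Benjamini-Hochberg over all genes tested, threshold 0.05). One model, with each group as a term, held all 21 tumor libraries (13434 genes, 13 residual degrees of freedom), and others held tumor and naive libraries of WT (13170 genes) or of mutant cells (13356 genes), with the kind of chimera as a term. SE was the log2 fold change divided by the square root of F, and intervals are at 95%. Log2 CPM used a prior count of 2. Library totals were 32308968 to 56904167 counts. Scripts were tested on simulated data.

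Alternatives were DESeq2 1.42.0, its size factors, no filter, the contrasted groups alone, replicate blocks, leaving out each library and, added after seeing the data, WT and mutant libraries together. Label numbers were taken to pair libraries where every correlation of same-numbered deviations over 8111 genes was over 0.1. Between genotypes these were 0.25 to 0.46 in the IL9R chimeras, 0.21 to 0.38 in ARG1 CD11c- IM and -0.17 to -0.07 in ARG1 CD11c+ IM, where the numbers were not taken to pair. The members and lists were chosen with earlier results of these data known. Named genes are the members, called members of the lists and the 3 genes most correlated with each member.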

Additional observations from a re-analysis of the deposited data

Results flagged for a closer look

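Clec5a in WT CD11c- IM had 1 library far from the others. IL9R CD11c- WT replicate 1 held 88.3 CPM, and the next highest of the 5 libraries held 46.7 CPM, and on the log2 CPM scale the gap took 0.934 of the group's whole range, above Dixon's 95% critical value for 5 samples. Chance takes about 1 in 20 groups past that critical value. The same library was also the highest of the CD11c- group in Clec4e and Clec7a (676 CPM each) and in Ptprc (753 CPM).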

How the results depend on the processing

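Of 96 values of members, 25 were called and 71 were not. None of the called values changed sign under an alternative, and 34 of the others did. Of the called values 9 were kept under every alternative run and 16 were lost under at least 1, and 5 others became called. The number of members called when 1 library was left out ranged from 2 to 4 between the subsets in WT cells, from 3 to 4 in cells labelled Il9r KO and from 1 to 3 in Arg1 CKO cells, from 0 to 1 between the kinds of chimera, from 2 to 6 for tumor CD11c- IM against naive macrophages in WT and in mutant cells, and for CD11c+ IM from 0 to 3 in WT and from 0 to 1 in mutant cells. In the same fits 805 to 1692 of all genes were called between the subsets in WT cells. In cells labelled Il9r KO this was 436 to 939 genes, and in Arg1 CKO cells 59 to 352. Between the kinds of chimera it was 0 to 291 genes. For CD11c- IM against naive macrophages it was 1293 to 3579 genes in WT and 374 to 3748 in mutant cells. For CD11c+ IM it was 1032 to 3202 and 3 to 2123 genes. With a replicate block 2 members (all label numbers) or 1 member (numbers that pair libraries) were called between the kinds of chimera, against 0 without it. The blocks lie within the kinds, so these calls cannot compare them. With WT and mutant libraries together 2 members and 4610 of all genes were called for CD11c+ IM against naive macrophages. In mutant cells alone these were 0 members and 763 genes. By CPM without length, 3 of 15 pairs of members changed their order of mean level over all 25 libraries, 4 in CD11c+ IM, 6 in CD11c- IM and 5 in naive macrophages. The cause of these shifts was not tested.

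Counts over all genes moved more. DESeq2 called 53, 28, 34 and 7 genes for Il9r (both subsets, CD11c-, CD11c+ and interaction), against 7, 3, 4 and 0 with edgeR, and 25, 10, 44 and 17 for Arg1, against 5, 1, 6 and 0. The contrasted groups alone gave 0 genes for Il9r in each subset, and 0 in CD11c- and 2 in CD11c+ IM for Arg1. Replicate blocks gave 5 for Il9r in CD11c- IM, and for Arg1 4 in CD11c- IM and 8 over both. Between the subsets 798 genes in cells labelled Il9r KO became 343 (groups alone) or 1222 (DESeq2), and 388 in Arg1 CKO cells became 757 to 872. Between the kinds of chimera 36 became 2 (groups alone), 355 (DESeq2), 157 or 899 (replicate blocks). The blocked counts cannot compare the kinds, because the blocks lie within them. Against naive macrophages 3057, 3055, 3077 and 763 became 5701, 4610, 5701 and 4610 with all libraries together, and 763 became 1750 with DESeq2. The small number of naive libraries limits those comparisons.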

Other observations

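Lectins outside the Dectin and Mincle group also differed between the populations in WT cells. Of 21 tested, 6 were higher and 4 lower in CD11c+ than in CD11c- IM, where 5.44% of all genes were called higher and 6.1% lower. Over naive macrophages the count was 4 higher and 5 lower for CD11c+ IM, beside 13.7% and 9.54% of all genes, and 5 higher and 8 lower for CD11c- IM, beside 13% and 10.2%. Mgl2, which binds galactose-type sugars, averaged 132 CPM in CD11c+ and 18.1 CPM in CD11c- IM (log2 2.87, edgeR adjusted p = 0.00903), and Cd33 73.3 and 31.5 CPM (1.19, edgeR adjusted p = 0.00699). Siglec1 (CD169), a sialic acid receptor of macrophages, averaged 212 CPM in CD11c+ IM, 514 CPM in CD11c- IM and 16.1 CPM in naive macrophages. It was called in each of these comparisons (edgeR adjusted p = 0.00173 between the subsets, 9.16e-05 and 5.96e-06 over naive). Galectin genes Lgals1 and Lgals9 were higher in both tumor subsets than in naive macrophages, by 2.04 and 1.51 in CD11c+ IM and by 2.12 and 2.10 in CD11c- IM. Clec10a and the mannose receptor Mrc1 were higher in tumor CD11c- IM than in naive macrophages (2.47 and 1.19), and Mgl2 and Cd33 were lower (-3.87 and -1.61). The comparisons with naive macrophages share the naive libraries.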
